A study of Mus musculus with 5 samples.

Results

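The cells described here are lung macrophages that carried transcripts of the complement component C1q together with high counts of *Gpnmb*, *Mmp12* and *Mfge8*, referred to below as the trio. They were selected on measured counts of unique molecular identifiers (UMIs), each of which stands for 1 captured mRNA molecule. A barcode was taken when its UMIs numbered 800 to 60000 in 300 to 8000 genes with under 15% of them mitochondrial, and when it held at least 10 UMIs of *C1qa*, *C1qb* and *C1qc* together, at least 1 of *Cd68*, at most 1 of *Car4*, at least 20 of the trio together, and 0 of *Cd3e* and *Cd79a*. Barcodes of day 3 with 3 or more UMIs of *Ly6c2* were left out. Of 44772 barcodes that passed the first 3 limits, 3797 met these criteria.

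The study followed immune cells of the mouse lung after bleomycin, which injures the epithelium and is followed by fibrosis, by droplet single-cell RNA sequencing. All 5 libraries, the sham library included, came from *Ms4a3-CreER;R26-tdT* mice given tamoxifen, in which a Cre recombinase expressed from *Ms4a3*, a gene of granulocyte and monocyte progenitors, switches on the red reporter tdT. There was 1 library from sham lungs that received PBS, and 1 each from lungs taken 3, 7, 14 and 28 days after intratracheal bleomycin. The lungs were perfused and digested and red cells were lysed. The study used adult mice of both sexes from an age of 7 weeks. How many went into a library is not given in the sources used here, so that differences between time points have no replicate check and were not tested. Reporter expression marks descent from *Ms4a3*-expressing cells only as far as tamoxifen reached them.

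C1q starts the classical complement pathway, and its 3 chains are made mainly by macrophages and related cells. *Mmp12* encodes macrophage elastase, *Mfge8* a secreted protein that bridges phosphatidylserine on dying cells to integrins of the phagocyte, and *Gpnmb* a membrane glycoprotein of phagocytes with a loaded lysosome. In injured or fibrotic lung, macrophages that express *Gpnmb* with *Spp1*, *Trem2* and lysosomal genes are known as scar-associated or lipid-associated macrophages, whereas resident alveolar macrophages (AMs) are known by *Car4*, *Marco*, *Krt79* and *Chil3*.

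The genes of the rule lie at separate sites of the genome, apart from those of C1q. In GRCm38, *C1qa* lies at chr4:136895917-136898803, *C1qc* at chr4:136889804-136893065 and *C1qb* at chr4:136880129-136886187, next to each other on the minus strand. *Gpnmb* lies at chr6:49036546-49070929, *Mmp12* at chr9:7344381-7369499 and *Mfge8* at chr7:79133768-79149060.

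The libraries held 131210167 UMIs in 11386 barcodes (sham), 89769386 in 8971 (day 3), 151234640 in 10000 (day 7), 144984156 in 9755 (day 14) and 167506186 in 12688 (day 28). The shallowest barcode held 4624 UMIs at day 7 and 500 to 502 in the other libraries, so that day 7 lacks the shallow barcodes that the others hold. Of 52487 distinct barcode sequences, 313 occurred in more than 1 library, and of 3793 distinct sequences among the C1q and trio cells, 4 did. Median UMIs per C1q and trio cell were 24095, 14342, 20754, 29791 and 23907 from sham to day 28.

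There were 11 such cells in sham and 22, 761, 1125 and 1878 at the 4 times after bleomycin. They made up 0.119% of the kept barcodes in sham (exact 95% binomial interval 0.0595% to 0.213%). By day 3 they made up 0.275% (0.172% to 0.416%). The share was 8.02% at day 7 (7.48% to 8.58%) and 14.5% by day 14 (13.7% to 15.3%). By day 28 it was 18.3% (17.5% to 19.0%). The share was larger at each later time point, and neighbouring intervals do not overlap from day 3 on. All intervals in the text cover counting error only. Among C1q macrophages, defined by the same criteria without the lower limit on the trio, the share was 16.2% of 68 cells in sham, 16.8% of 131 by day 3, 34.1% of 2232 by day 7, 60.3% of 1866 by day 14 and 83.2% of 2256 by day 28. Cells with at least 4000 UMIs (7198, 6595, 9493, 5904 and 7800 of the kept barcodes from sham to day 28, which is all of them at day 7 alone) were also thinned at random to that depth, with the limits scaled to it. The shares of these cells were 0.0972%, 0.258%, 5.17%, 12.0% and 20.6% in the same order, over fewer barcodes than the shares above. Among C1q macrophages thinned in this way, the share was 13.5%, 17.9%, 25.1%, 42.7% and 78.6%. It thus depends on depth, most of all at days 7 and 14.

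**Figure D1:**
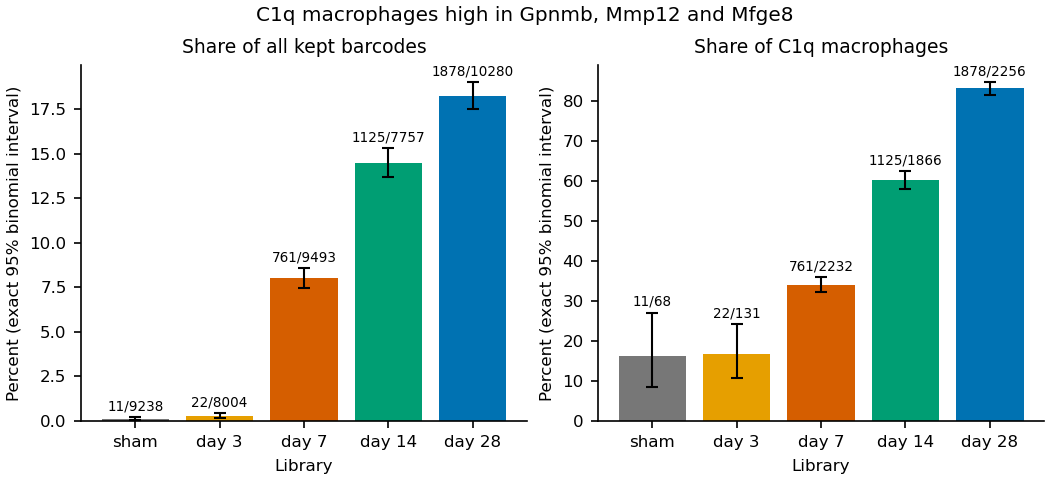
Share of C1q macrophages high in the trio in each library, as a percent of kept barcodes and of C1q macrophages, with exact 95% binomial intervals for counting error. Each bar is 1 library, with the numbers of cells above it, and the highest bars are those of day 28, at 18.3% of kept barcodes and 83.2% of C1q macrophages.

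The number at day 3 is set by the exclusion on *Ly6c2*, which encodes a surface protein of inflammatory monocytes. Without it, 351 cells of day 3 met the criteria, of which 329 (93.7%) held 3 or more UMIs of *Ly6c2*, and the share of kept barcodes was 4.39%. At day 7, where the exclusion was not applied, 138 of 761 cells (18.1%) held as many, at day 14 1 cell, and at day 28 3 cells. The 22 cells of day 3 are therefore those of a larger group with little *Ly6c2* transcript, and the comparison of day 3 with day 7 is one of differently selected cells. The cut on the trio is also a cut through a continuous range. Just below it, 298 C1q macrophages had 15 to 19 trio UMIs, with a median of 19017 UMIs in all and 100.5 of C1q, and just above it 278 had 20 to 24, with 19271 and 126.

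The 3 genes of the trio entered in different proportions at each time, which is a description of the values that selected the cells. Per 10000 UMIs of a cell, the median of *Gpnmb* was 4.81 in sham and then 26.2, 20.5, 10.9 and 18.8. The median of *Mmp12* was 10.8 in sham and then 0.312, 0, 9.57 and 21.8. That of *Mfge8* was 0 in sham and at days 3 and 7, 0.401 at day 14 and 23.5 at day 28. The cells of day 7 thus qualified mostly by *Gpnmb*, those of day 14 by *Gpnmb* or *Mmp12*, and those of day 28 by all 3 genes. *Gpnmb* was the gene with the most UMIs of the 3 in 80.0% of cells at day 7, 50.4% at day 14 and 22.6% at day 28, and *Mfge8* in 2.23%, 3.11% and 41.5%. At least 1 UMI of each of the 3 genes was present in 16.0% of cells at day 7, 54.0% at day 14 and 89.5% at day 28, and at least 10 of each in 2.10%, 10.2% and 57.2%.

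Across cells of 1 library, Spearman's rho between *Gpnmb* and *Mmp12* per 10000 UMIs was -0.447 at day 7 over 761 cells, -0.368 at day 14 over 1125 and 0.044 at day 28 over 1878. These cells share their library and were chosen on the sum of the same genes. The C1q sum per 10000 UMIs had medians of 23.4, 56.1, 64.8, 65.9 and 50.9 from sham to day 28.

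**Figure D2:**
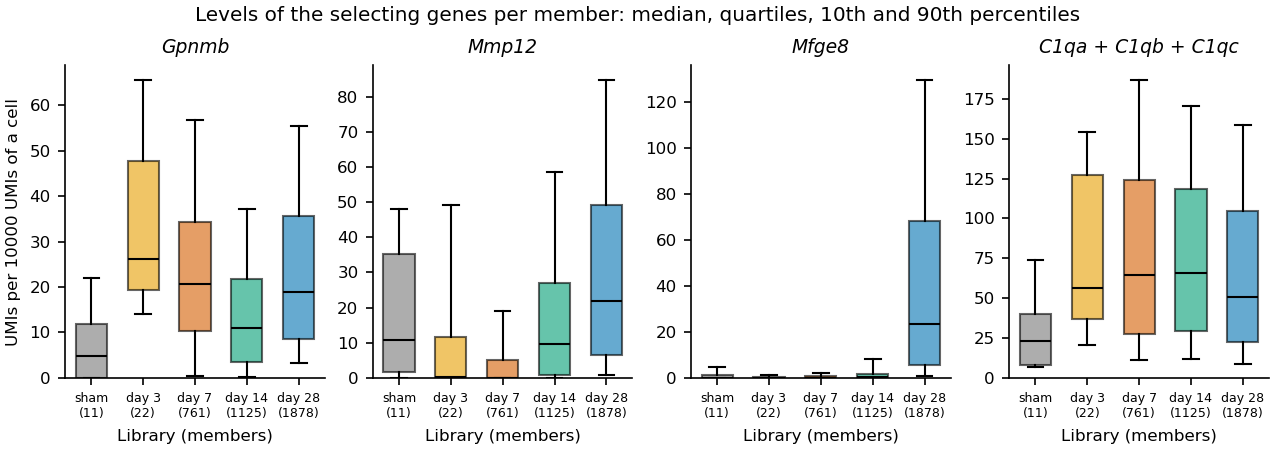
*Gpnmb*, *Mmp12*, *Mfge8* and the C1q sum in single C1q and trio cells (members) of each library, in UMIs per 10000 UMIs of the cell, with the number of cells in brackets. Boxes give the quartiles with the median as a line, and whiskers the 10th and 90th percentiles. *Mfge8* is at a median of 0 until day 7 and at 23.5 at day 28, while the median of *Gpnmb* is above 0 in all 5 libraries.

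Markers that the rule did not use were read from summed counts, as CPM (UMIs of a gene relative to all UMIs summed over a class in 1 library). Where 4 CPM values follow each other, they are those of days 3, 7, 14 and 28 in this order. *Marco*, a scavenger receptor of AMs, was at 7.56, 16.5, 5.06 and 3.17 CPM, and *Pparg*, the nuclear receptor that AMs depend on, at 27.7, 21.7, 33.5 and 29.0. *Lyve1*, the hyaluronan receptor of a perivascular kind of interstitial macrophage, stayed at or below 2.92 CPM in all 5 libraries. The 12 AM markers together summed to 1222 CPM in sham and then 1232, 1238, 1564 and 2934, led by *Itgax*, an integrin gene, in sham and at day 14 and by *Chil3* in the other libraries. *Chil3* was at 458, 450.5, 321 and 1126 CPM in the C1q and trio cells, 7776, 9042, 8428 and 8971 in the *Car4* macrophages high in the trio described below, and 521, 2775, 1293 and 1914 in B cells, so that its level lay below that of B cells in each of these libraries and cannot be told from background. *Itgax*, at 279.6, 254, 621 and 701 CPM, was above its level in B cells in each. Markers of T cells (4 genes) summed to at most 12.6 CPM in any library, those of B cells (4) to at most 14.2, of natural killer cells (4) to at most 35.3, of fibroblasts (5) to at most 14.9, of endothelial cells (4) to at most 57.9 and of dendritic cells (6) to at most 99.2. Neutrophil markers (5) summed to between 111 CPM at day 3 and 406 at day 14, with *S100a8* or *S100a9* the most abundant.

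Transcripts of 2 other cell types were present. The club cell secretory gene *Scgb1a1* made up most of an epithelial list of 8 genes, at 457 CPM in sham and then 75.6, 1040.4, 824 and 348. The 4 hemoglobin genes summed to 24.8 CPM in sham and then to 0, 0.76, 705 and 221. Few cells held most of the hemoglobin, since 3 of 1125 cells at day 14 carried 89.6% of its UMIs and 4 of 1878 at day 28 carried 93.3%. The part of these transcripts in the results below was not tested.

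The nearest class of cells are the 2756 C1q macrophages low in the trio, defined by the same criteria but with fewer than 20 trio UMIs. The question is what else differed between cells of 1 library on either side of the cut, and it was addressed with edgeR's quasi-likelihood test on UMIs summed per class and library, with the library as a block. The 4 libraries with at least 20 cells of each class (days 3, 7, 14 and 28, n = 4) entered, the 11 rule genes were not tested, and the Benjamini-Hochberg adjustment of p ran over every gene tested. Each library is a different time point. The SE and p of both class comparisons thus rest on how alike a difference was across time points, and not on replicates of any of them. Of 11965 genes, 560 (4.68%) were higher and 421 (3.52%) lower in the cells high in the trio, at an adjusted p under 0.05. The cells high in the trio also held more UMIs, with medians of 13026, 9144, 13349, 21301 and 13936 UMIs per cell in the low class from sham to day 28. Because the classes were cut in the same cells that were compared, any gene whose transcripts go with the trio from cell to cell can differ. The number of calls depends on single libraries, since 255 genes passed without day 28, 492 without day 7 and 512 without day 14. It also rests on the library block, since 0 passed in edgeR without it, where 1104 had an unadjusted p under 0.05, and DESeq2 with the block called 1452.

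**Figure D3:**
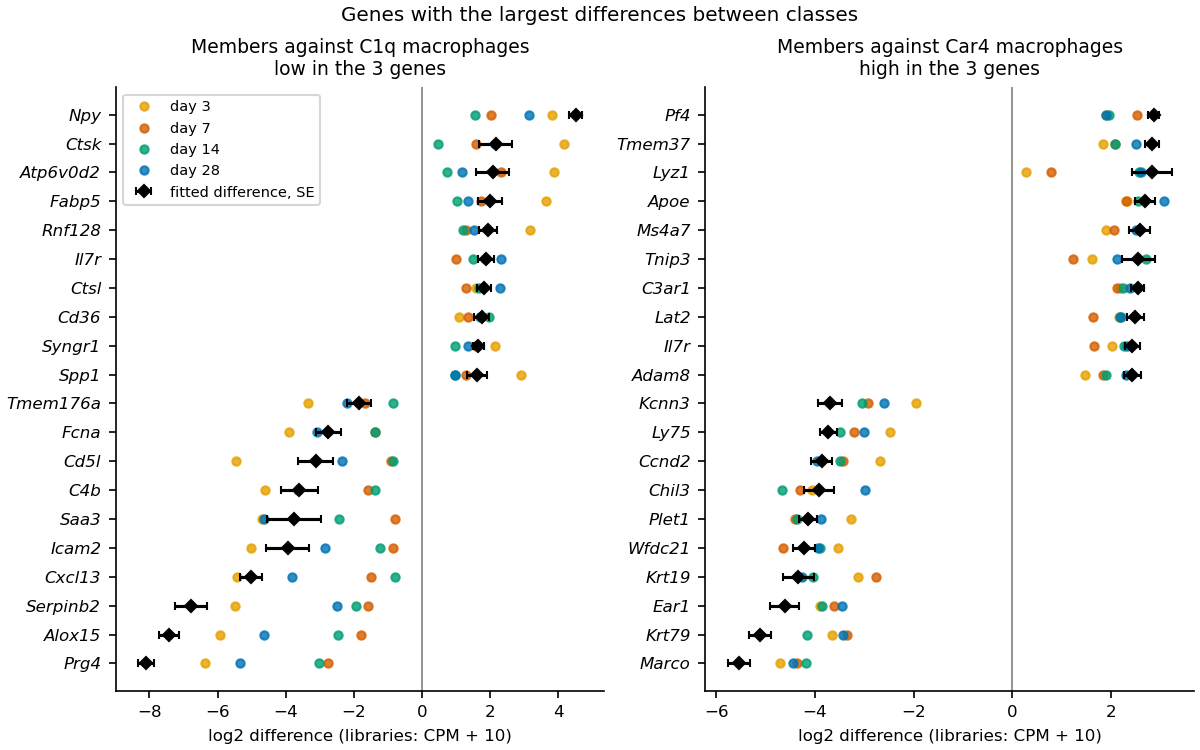
Named genes in C1q macrophages high in the trio (members) against C1q macrophages low in it (left) and against *Car4* macrophages high in it (right), as log2 differences. Diamonds with bars are the fitted difference and its SE (edgeR, n = 4 libraries), and dots are single libraries on log2(CPM + 10), which draws genes of low level towards 0, so that a fitted difference can lie outside the dots. In the left panel *Npy* lies farthest to the higher side at 4.50 and *Prg4* farthest to the lower side at -8.11. All dots of a gene lie on 1 side of 0, since the same direction in every library was a condition for naming it.

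Genes of scar-associated macrophages were largely higher in the cells high in the trio, with 8 of 12 listed genes higher and 0 lower (median log2 difference 1.08, against -0.01 for all genes tested). *Spp1*, which encodes the secreted matrix protein osteopontin, was at 4879.7, 9429, 23915 and 17779 CPM in these cells and 644, 3846, 12149.9 and 9073 in the low class. It was higher in the first in each library, although the 2 classes overlapped across libraries, with a log2 difference of 1.60 ± 0.29 (SE, edgeR adjusted p = 0.0196). *Trem2*, a lipid-sensing receptor, was at 947, 802, 733 and 1045 CPM against 194, 433, 480.3 and 587, without overlap, and differed by 1.21 ± 0.22 (SE, edgeR adjusted p = 0.0203). *Fabp5*, a carrier of fatty acids, was at 6094, 5314, 3296 and 3573 CPM against 484, 1592, 1631 and 1407, also without overlap, with a difference of 1.99 ± 0.36 (SE, edgeR adjusted p = 0.0196). *Lgals3* (galectin 3), *Cd63*, *Plin2* and *Lpl* (lipoprotein lipase) were higher by 1.27 ± 0.18, 1.14 ± 0.17, 1.01 ± 0.17 and 0.83 ± 0.17 on the log2 scale. *Apoe*, the apolipoprotein often named with these genes, was high in both classes, and its difference of 0.15 ± 0.24 (SE, edgeR adjusted p = 0.772) did not pass, nor did that of *Fn1* (fibronectin) at -1.05 ± 0.44 (SE, edgeR adjusted p = 0.202). Without day 7, *Spp1* (1.67) and *Fabp5* (2.04) no longer passed, and with DESeq2 *Spp1* did not (1.59, adjusted p = 0.22).

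Lysosomal genes that passed were all higher in the cells high in the trio. Of 12 cathepsins, the proteases of the lysosome, 7 were higher and 0 lower (median 0.65), and of 25 other lysosomal and proton pump genes 15 were higher and 0 lower (median 0.71). *Ctsl* was at 1015, 999.9, 3265 and 5046 CPM against 332, 406, 1016 and 1018 in the low class, and *Ctsd* at 7467, 10942, 8899.6 and 10879.8 against 1310.5, 3535, 6416 and 6379.6. The levels of *Ctsd* did not overlap between the classes and those of *Ctsl* did. The log2 difference was 1.81 ± 0.21 (SE, edgeR adjusted p = 0.00559) for *Ctsl* and 1.42 ± 0.29 (SE, edgeR adjusted p = 0.0266) for *Ctsd*. *Ctsk*, the collagen-degrading cathepsin of osteoclasts, was at 639.9, 167, 257 and 1114 CPM against 26.5, 49.6, 185 and 245. In B cells it was at 51.7, 195, 150.2 and 261 CPM, so that the C1q and trio cells of day 7 and the low class at days 3, 7 and 28 lay below that background. Its difference of 2.16 ± 0.49 (SE, edgeR adjusted p = 0.0377) was close to the threshold and no longer passed without day 7 (2.31) or without day 28 (2.06). *Atp6v0d2*, a subunit of the proton pump, was at 227, 244, 620.4 and 922 against 6.06, 41.4, 373 and 406 and differed by 2.06 ± 0.48 (SE, edgeR adjusted p = 0.0405), which did not pass without day 7 (1.86), without day 28 (2.39) or with DESeq2 (2.36, adjusted p = 0.0758) either. In B cells *Atp6v0d2* was at 23.6, 179, 103 and 219 CPM, so that the low class at days 3 and 7 lay below that background. *Psap*, the precursor of the saposins, was higher by 1.13 ± 0.19 and *Gla*, alpha-galactosidase, by 1.27 ± 0.16. *Mitf*, a transcription factor of lysosomal genes, was higher by 0.54 ± 0.11 (SE, edgeR adjusted p = 0.0285).

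CACGTG is the core of the sequence that transcription factors of the MiT family, among them Mitf, are known to bind at lysosomal genes. In the RefSeq promoters of GRCm38.p6, from 250 bases before to 50 after the start, these letters, which read the same on both strands, occurred for 2187 of 27025 genes (8.09%). Promoters were at hand for 28 genes of the cathepsin and lysosome lists, of which 11 (39.3%) held them, as did 8 of 17 (47.1%) that were higher in the cells high in the trio. They occurred for 0 of the 3 trio genes, in 4 promoters. A match describes the letters in this window and is not a binding site. The 3 promoters with the motif whose genes differed most are printed below 5′ to 3′ on the strand of the gene, with CACGTG in capitals, to show the motif at the genes of the group. They lie on the minus strand at chr13:64370471-64370770 (*Ctsl*), chr7:142387778-142388077 (*Ctsd*) and chrX:134600956-134601255 (*Gla*).
Ctsl: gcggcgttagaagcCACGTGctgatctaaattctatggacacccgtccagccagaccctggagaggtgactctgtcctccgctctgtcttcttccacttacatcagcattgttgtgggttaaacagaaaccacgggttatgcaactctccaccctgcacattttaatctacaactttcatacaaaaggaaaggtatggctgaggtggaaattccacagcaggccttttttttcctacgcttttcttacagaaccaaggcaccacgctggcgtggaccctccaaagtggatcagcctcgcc
Ctsd: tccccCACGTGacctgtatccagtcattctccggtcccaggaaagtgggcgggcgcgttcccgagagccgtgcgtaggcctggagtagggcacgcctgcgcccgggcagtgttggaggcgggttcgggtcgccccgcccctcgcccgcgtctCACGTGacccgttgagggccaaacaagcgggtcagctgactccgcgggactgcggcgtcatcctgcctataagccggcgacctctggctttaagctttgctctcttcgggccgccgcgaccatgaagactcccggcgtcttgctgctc
Gla: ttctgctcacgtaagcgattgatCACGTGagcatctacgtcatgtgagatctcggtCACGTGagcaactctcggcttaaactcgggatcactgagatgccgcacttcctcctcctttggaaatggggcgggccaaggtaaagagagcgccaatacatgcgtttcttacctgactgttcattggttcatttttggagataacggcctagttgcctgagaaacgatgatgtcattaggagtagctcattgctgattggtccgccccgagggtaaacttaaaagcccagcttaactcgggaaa
The motif occurs 1 time in the first of these and 2 times in each of the others.

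Some genes of lipid uptake and storage were higher. Of 12 genes of fatty acid uptake and lipid droplets, 5 were higher (*Fabp5*, *Cd36*, *Plin2*, *Lpl* and *Hilpda*) and 0 lower. *Cd36*, the fatty acid and scavenger receptor, was at 355, 164, 268 and 486 CPM against 164, 58.1, 60.8 and 144 and differed by 1.74 ± 0.21 (SE, edgeR adjusted p = 0.00578). The low class of day 7 lay below B cells of that library, which were at 76.1 CPM. Of 11 genes of cholesterol efflux under the nuclear receptor LXR, 2 were higher, among them *Abca1* at 0.98 ± 0.13 (SE, edgeR adjusted p = 0.00779), and of 14 genes of cholesterol synthesis 1 was higher and 1 lower. Of 13 genes of oxidative stress and iron storage, 6 were higher and 0 lower, among them *Fth1*, the ferritin heavy chain, at 0.96 ± 0.21 (SE, edgeR adjusted p = 0.0311) and the antioxidant enzyme gene *Srxn1* at 1.14 ± 0.09 (SE, edgeR adjusted p = 0.00125). Glycolysis genes were higher in 3 of 13, with 0 lower.

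Of the named genes, *Npy* had the largest difference in this direction. It encodes neuropeptide Y and was at 227, 38.1, 25.1 and 112 CPM in the cells high in the trio and at 6.82, 1.86, 1.96 and 3.83 in the low class. The levels did not overlap, and the difference was 4.50 ± 0.19 (SE, edgeR adjusted p = 4.73e-05). It was 3.90 with limits per 10000 UMIs and 5.42 against a low class with under 5 trio UMIs. *Il7r*, the receptor of interleukin 7, was at 262, 120.2, 268 and 321 against 65.9, 55.3, 88.6 and 56.3, without overlap, and differed by 1.88 ± 0.23 (SE, edgeR adjusted p = 0.00611). The ubiquitin ligase gene *Rnf128* was higher by 1.94 ± 0.27 (SE, edgeR adjusted p = 0.00947) and *Syngr1*, of a vesicle membrane protein, by 1.65 ± 0.17 (SE, edgeR adjusted p = 0.00330). Among growth factors, *Igf1*, *Hbegf*, *Pdgfa* and *Vegfa* were higher and *Tgfb2* lower, out of 14 tested, with differences of 1.11 ± 0.16 for *Igf1* and 1.10 ± 0.17 for *Hbegf*. *Csf1*, the growth factor of macrophages themselves, was higher by 1.58 ± 0.23 (SE, edgeR adjusted p = 0.0109).

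The genes lower in the cells high in the trio were of several groups, among them antigen presentation, monocytes and the cell cycle. Of 8 MHC class II genes, 7 were lower and 0 higher (median -1.11). *H2-Aa* was at 1929.7, 1372, 1119 and 444 CPM against 3074, 3274, 1907 and 1908 and lower in each library, with a difference of -1.12 ± 0.22 (SE, edgeR adjusted p = 0.0238). *Cd74*, the invariant chain, differed by -1.11 ± 0.20 (SE, edgeR adjusted p = 0.0181) and *Ciita*, the master regulator of these genes, by -1.30 ± 0.17 (SE, edgeR adjusted p = 0.00836). Of 10 monocyte genes, 5 were lower and 0 higher, among them *Ccr2*, the receptor that brings monocytes out of the marrow, at 78.1, 98.4, 77.0 and 16.3 CPM against 135, 386, 197 and 149 and a difference of -1.84 ± 0.31 (SE, edgeR adjusted p = 0.0158). *Cx3cr1*, the fractalkine receptor, differed by -1.44 ± 0.20 (SE, edgeR adjusted p = 0.00880). Of 15 genes of replication and mitosis, 11 were lower and 0 higher, with *Mki67* at -1.21 ± 0.23 (SE, edgeR adjusted p = 0.0233) and *Top2a* at -1.49 ± 0.28 (SE, edgeR adjusted p = 0.0224). *Klf2*, a transcription factor of quiescence, was lower at -1.51 ± 0.35 (SE, edgeR adjusted p = 0.0410).

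The named genes with the largest differences in this direction, *Prg4* and *Alox15*, were at or near 0 in the cells high in the trio. *Prg4*, which encodes lubricin, was at 0, 0.292, 0.201 and 1.48 CPM in them and at 814, 60.2, 73.4 and 459 in the low class, a difference of -8.11 ± 0.23 (SE, edgeR adjusted p = 6.84e-06). *Alox15*, a lipoxygenase, was at 0, 0.409, 0.230 and 1.16 against 594, 26.2, 47.1 and 269 and differed by -7.42 ± 0.29 (SE, edgeR adjusted p = 4.22e-05). In the low class both were highest at days 3 and 28 and lowest at day 7, and the levels of the classes did not overlap. *Serpinb2* (-6.79 ± 0.47), the chemokine gene *Cxcl13* (-5.02 ± 0.31), *Icam2* (-3.94 ± 0.63), the acute phase gene *Saa3* (-3.76 ± 0.80), the complement gene *C4b* (-3.60 ± 0.55), *Cd5l* (-3.12 ± 0.51), the ficolin gene *Fcna* (-2.75 ± 0.37) and *Tmem176a* (-1.84 ± 0.35) followed. *Saa3* did not pass without day 3 (-3.32), day 14 (-3.99) or day 28 (-2.99), nor *Tmem176a* without day 7 (-1.94) or day 28 (-1.74). Without day 28 the difference was -5.98 for *Serpinb2*, -3.07 for *Icam2* and -2.83 for *C4b*, without day 7 it was -7.91, -4.83 and -4.26 and that of *Saa3* -4.72, and *Cd5l* was at -3.71 without day 14. With marked doublets removed *Prg4* was at -10.2 and *Alox15* at -8.57. Among interstitial macrophage markers, 5 of 16 were lower, with *Lyve1* at -3.86 ± 0.34 (SE, edgeR adjusted p = 0.00154) and the hemoglobin scavenger receptor *Cd163* at -5.34 ± 0.34 (SE, edgeR adjusted p = 0.000449), and *Ms4a7* was higher at 0.55 ± 0.12 (SE, edgeR adjusted p = 0.0370). Of 14 genes of efferocytosis and scavenging tested, 1 was higher (*Cd36*) and 2 lower, *Timd4* (-4.50 ± 0.51) and *Cd5l*, while 11 were not called. Of 4 fibroblast genes tested, the 3 collagen genes *Col3a1*, *Col1a1* and *Col1a2* were lower. The 5 listed fibroblast genes together summed to only 7.56, 14.9, 3.16 and 6.30 CPM in the cells high in the trio, so that these calls lie near the floor. Hemoglobin genes were higher for 4 of 4 (median 2.45), beside the few cells rich in hemoglobin at days 14 and 28. DESeq2 called 0 of these 4, and their median log2 difference in single libraries was -0.20, -0.01, 2.14 and 1.18 from day 3 to day 28.

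Other groups had few calls across this cut. Of 12 interferon-stimulated genes, edgeR called 0 (median 0.13), with 3 at an unadjusted p under 0.05, and DESeq2 called 0. Of 20 chemokine ligand genes 1 was higher (*Ccl6*) and 1 lower (*Ccl12*). Their median was -0.51, 13 had an unadjusted p under 0.05 by edgeR, and DESeq2 called 4. Of 12 AM markers, *Bhlhe41* and *Itgax* were higher and *Ear2*, which has near-identical copies, was lower. Among these markers 8 had an unadjusted p under 0.05 by edgeR, and DESeq2 called 3. Of 15 matrix proteases and inhibitors tested, *Adam8* was higher and *Timp3* lower. Of 20 transcription factors, *Bhlhe41* and *Mitf* were higher and *Klf2* lower. An unadjusted p under 0.05 by edgeR was found for 9 matrix proteases and inhibitors and 7 transcription factors, and DESeq2 called 3 and 4.

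The second comparison sets the cells against macrophages that also had 20 or more trio UMIs but 2 or more of *Car4*, the carbonic anhydrase of AMs. There were 942 of these in sham and 58, 202, 234 and 459 from day 3 to day 28. Of 11380 genes tested in the same 4 libraries, 1819 (16.0%) were higher and 1823 (16.0%) lower in the C1q and trio cells, and in all 1654 passed without day 14, 1003 with no library block and 2333 with limits per 10000 UMIs. The *Car4* cells were deeper, with median UMIs of 25306, 25578.5, 28873, 40087.5 and 34508 from sham to day 28. Of these cells 29.3%, 24.8%, 12.4% and 20.9% were marked as doublets at days 3, 7, 14 and 28, against 4.55%, 5.91%, 7.38% and 9.58% of the C1q and trio cells. C1q was not used to define them, and the limit on *Car4* keeps the classes apart. Because C1q was required of the C1q and trio cells alone, any gene whose transcripts go with C1q or with *Car4* can differ. The counts of interstitial macrophage and AM markers below therefore describe the selection as well, and are no independent support for what the cells are.

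Against the *Car4* cells, 13 of 15 tested interstitial macrophage markers were higher and 1 lower (median 2.20), and 11 of 12 AM markers were lower and 0 higher (median -3.30). *Ms4a7* was at 718, 339, 275 and 255 CPM against 185, 73.5, 38.1 and 36.4 in the *Car4* cells and differed by 2.59 ± 0.21 (SE, edgeR adjusted p = 0.000112). *Marco* was at 449, 541, 263 and 277 in the *Car4* cells, with a difference of -5.54 ± 0.23 (SE, edgeR adjusted p = 1.18e-05). The levels of both genes did not overlap between the classes. At days 7, 14 and 28 *Marco* in the C1q and trio cells lay below B cells, at 113, 10.4 and 14.2 CPM in the latter. The size of its difference is therefore not exact, and the same holds for *Chil3*. *Apoe* was at 2018, 16473, 22694 and 22577 CPM against 393, 3316, 3859 and 2645 and differed by 2.69 ± 0.21 (SE, edgeR adjusted p = 9.10e-05). *Pf4* (2.87 ± 0.12), *Tmem37* (2.84 ± 0.14), *Tnip3* (2.56 ± 0.33), the anaphylatoxin receptor gene *C3ar1* (2.55 ± 0.13), *Lat2* (2.50 ± 0.16), *Il7r* (2.44 ± 0.15) and *Adam8* (2.44 ± 0.17) were also higher. *Lyz1* (2.84 ± 0.40) was too, although its reads may be shared with *Lyz2*. The sizes of these differences depend on how cells were taken. With marked doublets removed, 12 of the 20 named differences were larger by over 1.5-fold, with *Apoe* at 3.67, *Pf4* at 3.74 and *C3ar1* at 3.39. With limits per 10000 UMIs, 6 were smaller by over 1.5-fold, *Apoe* at 1.81, *C3ar1* at 1.59, *Adam8* at 1.48, *Lat2* at 1.42, *Il7r* at 1.25 and *Tmem37* at 2.10, and all 20 passed under both settings. Lower were the keratin genes *Krt79* (-5.11 ± 0.22) and *Krt19* (-4.34 ± 0.31), *Ear1* (-4.62 ± 0.29), which has near-identical copies, *Wfdc21* (-4.23 ± 0.22), *Plet1* (-4.14 ± 0.19), the chitinase-like *Chil3* (-3.92 ± 0.31), *Ccnd2* (-3.87 ± 0.21), *Ly75* (-3.74 ± 0.17) and *Kcnn3* (-3.70 ± 0.24).

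Chemokine, interferon and MHC class II genes were mostly higher in the C1q and trio cells than in the *Car4* cells. Of 20 chemokine ligands 15 were higher and 1 lower (median 1.36), of 5 chemokine receptors 4 were higher, of 12 interferon-stimulated genes 11 were higher (median 1.40), and of 8 MHC class II genes 7 were higher (median 1.48). *Ccr2* was higher by 1.97 ± 0.15, *Cx3cr1* by 2.20 ± 0.25 and *H2-Aa* by 1.78 ± 0.30. Lipid genes lay on the other side, with 7 of 11 cholesterol efflux genes lower and 3 higher, 6 of 12 fatty acid genes lower and 2 higher, and 6 of 14 cholesterol synthesis genes lower. The efflux transporter gene *Abcg1* differed by -1.62 ± 0.14 (SE, edgeR adjusted p = 0.000153) and *Lpl* by -1.04 ± 0.28 (SE, edgeR adjusted p = 0.0235). Of the scar-associated genes, 6 of 12 were higher, among them *Trem2* at 1.56 ± 0.14 (SE, edgeR adjusted p = 0.000160), and 3 were lower, among them *Ctsk* at -1.44 ± 0.38 (SE, edgeR adjusted p = 0.0232). Among the 3 classes compared, *Ctsk* was thus highest in the *Car4* cells of each library, at 1776, 998, 1007 and 1185 CPM, followed by the C1q and trio cells and then by the C1q cells low in the trio. In *Car4* macrophages low in the trio, which were not tested here, it was at 721, 707, 685 and 596 CPM, above the C1q and trio cells at days 3, 7 and 14 and below them at day 28. *Spp1* at 0.69 ± 0.37 (SE, edgeR adjusted p = 0.197) did not pass. Of 25 lysosomal genes, 8 were higher and 3 lower (median 0.14), and of 11 tested cathepsins 5 were higher and 1 lower.

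Within the C1q and trio cells, levels were then followed over time with no test, since each time point is 1 library. Genes were taken at 100 CPM or more in either library of a pair, and a ratio of 2-fold or more was counted. From day 3 to day 7, 51 of 1740 genes (2.93%) passed this ratio upwards and 186 (10.7%) downwards, with a median log2 ratio of -0.20 over these genes. From day 7 to day 14, 40 of 1478 (2.71%) were higher and 32 (2.17%) lower. From day 14 to day 28, 22 of 1424 (1.54%) were higher and 58 (4.07%) lower. The cells of day 3 rest on 22 barcodes, and those of sham on 11.

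The interferon genes were highest at day 3. All 12 interferon-stimulated genes were at least 2-fold lower at day 7 than at day 3, with a median log2 ratio of -3.54, and their sum was 443 CPM in sham and then 4424, 515, 434 and 185. *Isg15*, a ubiquitin-like protein gene induced by interferon, was at 554, 30.6, 41.5 and 14.8 CPM. *Oasl1*, *Rsad2*, *Cmpk2* and *Slfn4*, which interferon also induces, were with *Isg15* the 5 largest decreases, with log2 ratios of -4.23 for *Oasl1*, -4.18 for *Isg15* and -4.13 for *Rsad2*. *Cdkn1a*, the cell cycle inhibitor induced by p53, was at 1675, 498, 449.5 and 238 CPM, and 3 of 6 measured p53 targets were lower at day 7. Between the C1q classes of 1 library, the median log2 difference of the interferon list was 0.73 in the library of day 3 and -0.12, -0.05 and 0.03 in the later ones.

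The largest increases from day 3 to day 7 were those of *Ccl17*, *Scgb1a1*, *Stmn1*, *Thbs1* and *Apoe*. *Ccl17*, a chemokine gene for T cells with CCR4, had 0 UMIs at day 3 and 205 CPM at day 7. Against a floor of 3 UMIs in the library of day 3 this is a log2 ratio of at least 4.76. In B cells of the same libraries *Ccl17* was at 8.71 CPM at day 3 and 249 at day 7, so that its level at day 7 cannot be told from background. The same holds for *Scgb1a1*, at 10438 CPM in B cells at day 7, although 7 of 294 B cells carried 91.4% of these UMIs. *Apoe* was at 400.2 CPM in sham and then 2018, 16473, 22694 and 22577, a log2 ratio of 3.03 between days 3 and 7. *Thbs1*, the matrix glycoprotein thrombospondin 1, was at 50.4, 423, 15.9 and 16.9 CPM, high at day 7 alone. *Stmn1* is a microtubule regulator of dividing cells, and *Mki67*, a marker of division, was at 2.52, 57.1, 18.5 and 6.17 CPM, and at 2.71, 61.0, 15.7 and 27.0 in B cells.

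At day 14 chemokine transcripts were lower than at day 7, for 7 of 13 measured ligand genes with 1 higher (median -1.30). *Ccl2* was at 1532, 949.9, 174 and 52.3 CPM and *Ccl7* at 2013, 788, 86.7 and 15.7, both ligands of CCR2, and each was lower at every later time point. The log2 ratio of day 14 to day 7 was -2.45 for *Ccl2*, -3.18 for *Ccl7*, -2.84 for *Ccl12* and -4.73 for *Thbs1*. *Gm10076*, whose reads may belong to a gene it copies and which was at 339 and 17.0 CPM in B cells against 288 and 11.1 here, was also among the 5 largest decreases. Besides hemoglobin genes, whose copies *Hba-a1* and *Hba-a2* are near-identical, the largest increases were in *Hal*, histidine ammonia-lyase, at 5.04, 2.22, 126 and 102 CPM and in the metalloproteinase gene *Mmp19* at 25.2, 77.2, 478 and 307 CPM. *Spp1*, *Fn1* and *Lpl* were each at least 2-fold higher at day 14 than at day 7. *Fn1* was at 1650.3 CPM in sham and then 224, 979.6, 2983 and 2168.

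At day 28 the inflammatory and antigen-presenting transcripts were lower than at day 14. Of 7 measured inflammatory genes 6 were at least 2-fold lower (median -1.74), of 8 chemokine ligands 5 and of 6 MHC class II genes 4 (median -1.18). The inflammatory list summed to 5811 CPM in the 11 sham cells and then to 2688, 4442, 4201 and 1251. *Il1b*, interleukin 1 beta, was at 267, 679.7, 624 and 129 CPM, *Cxcl2* at 1423, 2628, 2505 and 620.1 and *Cxcl1* at 95.7, 159, 401 and 74.2. The MHC class II genes summed to 22162 CPM in sham and then 10059, 7336, 5545 and 2452, which is lower at each step. The sham value rests on 11 cells, of which 2 were marked as doublets. Dendritic cell markers summed to 99.2 CPM in these sham cells and to 5.04 at day 3. The largest decreases were those of *Cxcl1* (-2.43), *Il1b* (-2.27), *Rasgef1b* (-2.27), *S100a9* (-2.15) and *Socs3* (-2.13). *S100a9*, a neutrophil marker, was at 635 and 64.7 CPM in B cells against 143 and 32.3 in the C1q and trio cells, and cannot be told from background. *Il1b* in B cells was at 276, 787, 251 and 66.0 CPM, which is above the C1q and trio cells at days 3 and 7 and below them at days 14 and 28. At day 28 *Rasgef1b* and *Socs3* were also below B cells, at 31.5 and 101 CPM in the latter. Replication genes summed to 1494 CPM in sham, again over 11 cells, and then to 159, 661, 254 and 205.

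The 5 largest increases from day 14 to day 28 included *Ctsk* and *Npy*, which had also separated the C1q classes, and *Chil3* of the AM list. *Ctsk* had a log2 ratio of 2.12 to day 14 (257 to 1114 CPM), *Npy* of 2.16, *Pianp* of 1.90 and *Chil3* of 1.81 (321 to 1126 CPM). *Chil3* was detected, at 4000 UMIs per cell, in 44.9% of the C1q and trio cells at day 14 and 58.2% at day 28, against 60.8% and 74.4% of B cells, which is at or below background, and only the values of its level are given. *Gm8797*, a protein-coding gene in the annotation, had the largest ratio, at 23.1 and 247 CPM, and moved alike in B cells, at 18.3 and 211. Of the AM list *Fabp4* and *Chil3* were past 2-fold, whereas *Marco* was at 3.17 CPM and *Pparg* at 29.0. Of 18 measured lysosomal genes, 0 were past 2-fold between days 14 and 28.

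**Figure D4:**
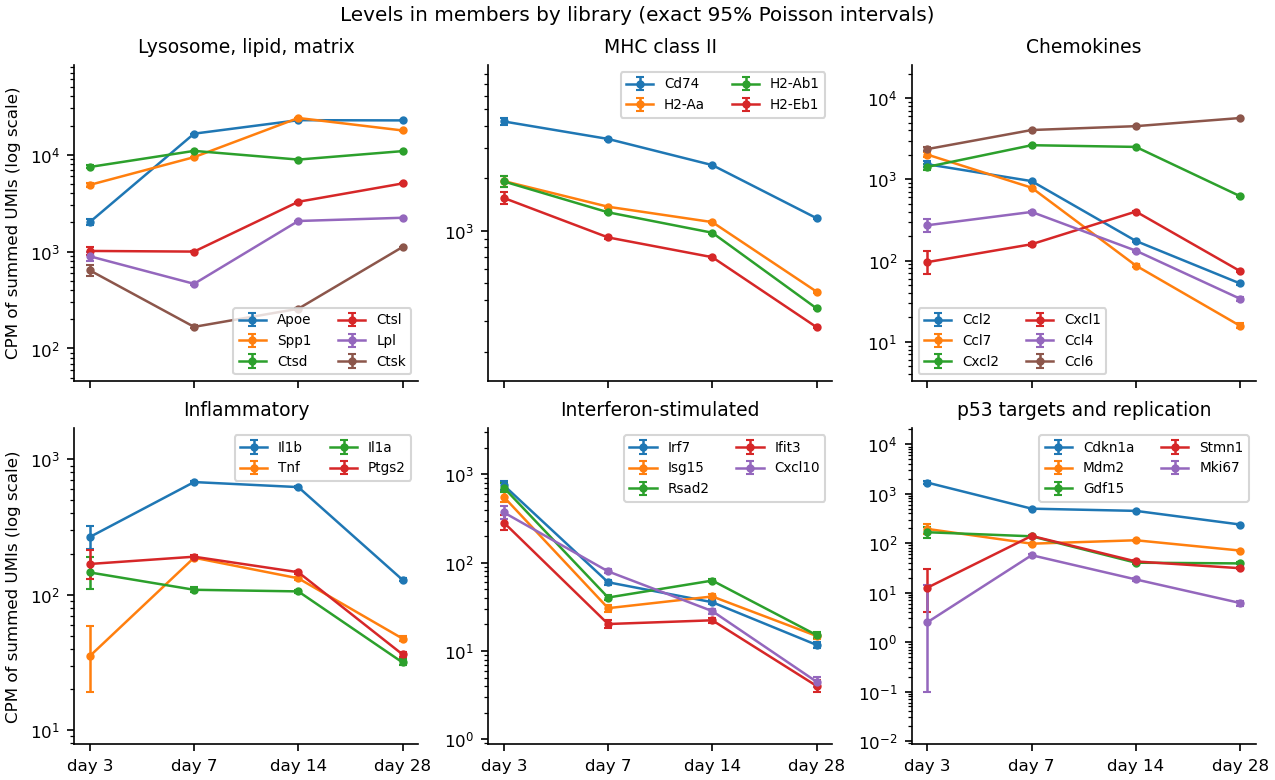
CPM of genes of 6 groups in C1q and trio cells (members) at days 3, 7, 14 and 28, from summed UMIs, on a log axis with exact 95% Poisson intervals for counting error. The interferon genes are highest at day 3, the MHC class II genes and *Ccl2* and *Ccl7* are lower at each later time, and *Ctsk* is highest at day 28.

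Within the cells of day 28, levels were also read by the size of the trio, in cells thinned to 4000 UMIs. They were placed by 8 to 19, 20 to 39 or 40 and more trio UMIs (444, 482 and 774 of 1872 cells). Cells with fewer than 8 after thinning were in none of these ranges. The ranges are those of the selecting values and were not tested. *Ctsl* was at 2052, 3728 and 7609.8 CPM in this order, *Ctsk* at 570.4, 755 and 1638, *Lgals3* at 3745, 5123 and 7172, *Il7r* at 157, 276 and 473 and *Npy* at 19.7, 50.8 and 201. *H2-Aa* ran the other way, at 852, 419.6 and 174 CPM, as did *Cd74* at 2198, 1212 and 575 and *Ccr2* at 38.3, 11.9 and 3.55. *Fn1* was also lower in the upper range, at 2742, 2355 and 1953, while *Spp1* was at 14578, 18397 and 19204. Other libraries did not share all of these orders. At day 14 (453, 211 and 86 of 1125 cells) *Fn1* was at 2662, 3168 and 3782 CPM and *Npy* at 27.6, 42.7 and 32.0. At day 7 (342, 121 and 30 of 761 cells) *H2-Aa* was at 1161, 845 and 1150.0. *Ctsl*, *Ctsk*, *Lgals3* and *Il7r* were at higher levels in each higher range at days 7 and 14 as well.

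Shares of cells with a UMI were read at 4000 UMIs beside those of B cells of the same library (3 or more *Cd79a* UMIs), which should lack these genes. Cells under 4000 UMIs were left out of these shares, here and for the reporter below. *Trem2* was detected in 36.4% of 11 C1q and trio cells in sham and 85.7% of 21 at day 3, against 5.43% and 2.52% of B cells, and in 86.3% of the C1q and trio cells at day 7, 87.7% at day 14 and 93.9% at day 28, against 9.18%, 9.46% and 14.4% of B cells. *Spp1* was detected in 99.2% at day 14, but also in 98.6% of B cells, so that its detection in a cell of that library does not stand above background and only its level can be read.

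The *tdT* reporter, taken to be the added feature named RFP, was read as the share of cells with at least 1 UMI after thinning to 4000 UMIs. It was detected in 3 of 11 C1q and trio cells of sham (27.3%), and in 52.4%, 55.3%, 79.6% and 43.7% of those of the later libraries in order of time. In B cells, which do not descend from *Ms4a3*-expressing progenitors, the shares were 26.4%, 18.7%, 23.1%, 44.6% and 27.5%, which is a background in each library. They rest on 258, 636, 294, 74 and 160 B cells with 4000 UMIs or more, of 423, 713, 294, 105 and 431. T cells (2 or more *Cd3e* UMIs), which should also lack the reporter, were at 33.9%, 20.6%, 34.0%, 58.9% and 32.5%. That is above B cells in each library and above the C1q and trio cells in sham, so that the background differs with the class used. The share in C1q and trio cells was above that of B cells in 5 of 5 libraries, by a mean of 23.6 percentage points (exact sign-flip permutation test, two-sided p = 0.063, Benjamini-Hochberg adjusted p = 0.3125 over 5 comparisons). The smallest p that 5 libraries allow is 0.063. Against C1q macrophages low in the trio the mean difference was 2.25 percentage points (SD 8.56, higher in 3 of 5 libraries, exact permutation p = 0.625). Against *Car4* cells high in the trio it was 8.63 (higher in 3 of 5, exact permutation p = 0.25), against *Car4* cells low in it 13.05 (4 of 5, exact permutation p = 0.1875) and against T cells 15.7 (4 of 5, exact permutation p = 0.125). Adjusted, the last 3 were at 0.3125 each by the same exact test and the first at 0.625. The reporter share moved with the library in all classes, B cells included, and was highest at day 14.

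**Figure D5:**
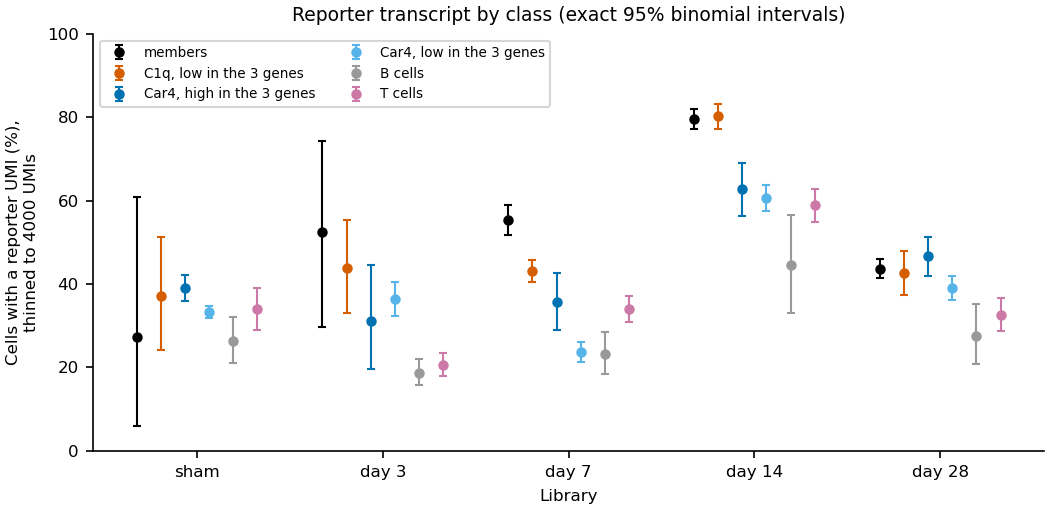
Percent of cells with at least 1 reporter UMI after thinning to 4000 UMIs, for the C1q and trio cells (members) and 5 other classes in each library, with exact 95% binomial intervals for counting error. The C1q and trio cells lie above B cells in each library and below T cells in sham, and all classes are highest at day 14.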

How the data were processed

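Immune cells of lungs were profiled in 5 droplet libraries, 1 per group. The authors aligned reads to mm10 and counted UMIs with Cell Ranger (version 6.0.0 per the submitters' processing notes), and the values deposited are unscaled UMI counts of genes in each barcode, neither normalized nor filtered by the study's limits. Here barcodes were filtered and classed by counts as the report states. The cells, the classes and the 38 gene lists (364 genes, all 364 found) were chosen with earlier results of these data known. The classes are ranges of measured counts and not cell types, and nothing says that libraries hold more than 1 animal.

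Doublet scores came from Scrublet in scanpy 1.11.5, and the highest-scoring 0.8% of barcodes for each 1000 barcodes of a library were marked but kept. UMIs were summed per class and library and tested with edgeR 4.0.16 in R 4.3.3 (quasi-likelihood test, TMM, filterByExpr, library as a block, adjusted p under 0.05), which was also tested on simulated data. For the first comparison (11760 genes) it recovered 40.3% of 1.5-fold, 77.3% of 2-fold and 98.4% of 4-fold changes, with 2.76% false calls. For that with *Car4* cells (11212 genes) it recovered 67.7%, 87.7% and 98.4%, with 6.36% false calls, above the 5% aimed at. DESeq2 1.42.0 was an alternative. The study's own per-cell tests were not used, since cells are not replicates. Sham, with 11 cells, was left out of these fits. A symbol with more than 1 row was read from the first.

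Named genes were, for each class comparison, the 10 largest differences in each direction among genes past the threshold, at 100 CPM or more in either class and of the same direction in every library fitted, for each pair of time points the 5 largest ratios in each direction at 100 CPM or more, and members of the lists. The rule genes and mitochondrial and ribosomal protein genes were left out of the first 2 sets. Promoters and positions are those of GRCm38.p6 in RefSeq and the annotation of GRCm38. Python 3.11.15 was used with matplotlib 3.10.9, pandas 2.3.3, scipy 1.17.1 and numpy 2.4.6. The closing section gives the effect of the alternatives, of which 3 were chosen after seeing the data. Results for a few genes are not reported here.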

Additional observations from a re-analysis of the deposited data

Results flagged for a closer look

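In the comparison with C1q cells low in the trio, the median log2 difference of 11 matrix and adhesion genes was 0.47 (0.465) at day 3 and -0.41 (-0.407) at day 28, so that libraries lay on opposite sides of 0. Against *Car4* cells high in the trio, the same list was at 0.65 (0.654) at day 7 and -0.41 (-0.408) at day 3. In the latter comparison, the p53 target list was at 0.35 (0.354) at day 3 and -0.59 (-0.589) at day 14, and the neutrophil markers at 0.77 (0.772) at day 14 and -0.87 (-0.867) at day 7. These differences between libraries were not tested, and the C1q and trio cells of day 3 number 22.

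The reporter share of the C1q and trio cells also lay above that of other classes in some libraries and below it in others, untested. The highest and lowest differences were 12.2 and -9.76 percentage points against C1q cells low in the trio, 21.3 and -11.7 against *Car4* cells high in it, 31.6 and -5.96 against *Car4* cells low in it, and 31.8 and -6.64 against T cells. Each of the lowest values is that of the sham library, with 11 C1q and trio cells.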

How the results depend on the processing

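Single libraries per time point limit every statement on time to counting error, and day 7 lacks barcodes under 4624 UMIs. In what follows, the causes of the changes were not tested. Against C1q cells low in the trio, the 981 calls became 2028 with no filter on low counts (19552 genes tested) and 0 with no library block, where 1104 genes had an unadjusted p under 0.05 by edgeR and DESeq2 with the block called 1452. Leaving out 1 library gave 255 (without day 28) to 1116 (without day 3), with 492 without day 7 and 512 without day 14. Against *Car4* cells, the 3642 calls became 1003 with no library block and 2333 with limits per 10000 UMIs, and 1654 (without day 14) to 4186 when 1 library was left out. No direction of the 40 named differences turned under any alternative run. These genes had been chosen for the same direction in every library fitted, so that this is no measure of stability. Of 260 values for the first comparison 34 no longer passed, 20 of them with no block and 11 with 1 library left out (*Saa3*, *Ctsk*, *Atp6v0d2*, *Fabp5*, *Spp1* and *Tmem176a*), and of 220 for the second 3, *Pf4*, *Lyz1* and *Apoe* with no block. DESeq2 alone lost *Atp6v0d2* and *Spp1*, and *Saa3* was lost at 50 cells per class.

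Among C1q macrophages, the share of C1q and trio cells with limits per 10000 UMIs was 9.68% in sham and 18.9% at day 3. It was 21.4% at day 7, 39.6% at day 14 and 75.7% at day 28, against 34.1%, 60.3% and 83.2% in the main setting. Thinned to 4000 UMIs, it was 25.1%, 42.7% and 78.6% on these days. Of kept barcodes, the share with limits per 10000 UMIs was 4.81% at day 7, 8.93% at day 14 and 15.5% at day 28. Over the 9493, 5904 and 7800 barcodes with at least 4000 UMIs, thinned to that depth, it was 5.17%, 12.0% and 20.6%. Chosen after seeing the data, a minimum of 4624 UMIs, the lowest of day 7, in every library gave 20.1% at day 14 and 25.1% at day 28, the *Ly6c2* exclusion lifted gave 4.39% at day 3, and the exclusion in every library 6.56% at day 7. Without thinning, the reporter was detected in 72.7%, 77.3%, 75.4%, 94.8% and 70.2% of cells from sham to day 28, and at 2 UMIs or more in 40.1% at day 7, 69.5% at day 14 and 31.1% at day 28. The genes past 2-fold between successive time points, 237, 72 and 80, numbered 447, 139 and 122 at a minimum of 50 CPM and 132, 42 and 45 at 200 CPM. Removing marked doublets left the counts of calls within 1.5 times, but moved 12 of 20 named differences against *Car4* cells and 2 of 20 in the first comparison (*Prg4* and *Alox15*) by over 1.5-fold, each to a larger size. Limits per 10000 UMIs moved 6 and 3 by as much, each to a smaller size. In the first comparison 11 were larger by over 1.5-fold against a low class with under 5 trio UMIs, and with no block 9 were larger and 1 smaller.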

Other observations

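A few C1q and trio cells carried many transcripts of other cell types. Hemoglobin reached 9112 UMIs in 1 cell at day 14 and 5033 in 1 at day 28, and none of the 3 and 4 cells with 100 or more hemoglobin UMIs at these times were marked as doublets. *Scgb1a1* reached 100 or more UMIs in 6 cells at day 7, 4 at day 14 and 5 at day 28, of which 1, 3 and 4 were marked as doublets, and these cells held 36.0%, 62.7% and 42.2% of the *Scgb1a1* UMIs of the class. The median cell held 13 *Scgb1a1* UMIs at day 7, 9 at day 14 and 4 at day 28, against 8, 5 and 2 in B cells of the same libraries. These are raw counts in cells of unlike depth. Median UMIs in all were 20754, 29791 and 23907 in the C1q and trio cells and 8148, 5316 and 3435 in B cells.

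The ferritin heavy chain gene *Fth1* and related genes of iron storage and oxidative stress summed to 51528, 51912, 47599 and 60138 CPM from day 3 to day 28 in the C1q and trio cells. Genes of cholesterol synthesis, 14 in number, summed to 351 CPM at day 7 and 707 at day 28. Of the colony-stimulating factor list, *Csf1* was at 80.6, 34.4, 37.2 and 16.5 CPM in the same order. *Timp2*, an inhibitor of metalloproteinases, was at 351 CPM in sham and then 655, 864, 935 and 1029. These are values of single libraries and were not tested.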
